A study of Homo sapiens with 36 samples.

Results

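The early change with time in culture without drug was taken from the solvent arrays: 3 arrays of HepG2 cells kept in 0.5% DMSO for 24 h and 3 kept in it for 12 h, chosen by their titles from 36 arrays in 12 groups of 3. All 18919 Ensembl gene rows of the 18981 rows in the table were compared, the other 62 being Affymetrix control rows. HepG2 is a human cell line from a liver tumour, used as a model of the hepatocyte that keeps dividing. The other groups used here were exposed to 0.5 mM or 10 mM acetaminophen (APAP), an analgesic that harms the liver in overdose, for the same times, and solvent and both doses were also taken at 48 and 72 h. Whether the APAP medium also held DMSO, and whether medium was renewed later, is not given in the labels. All cells were grown in the same serum-containing medium, which was replaced by fresh medium with compound or solvent when the cells neared confluence, and the series text calls the 3 arrays of a group biological replicates. The protocol for RNA extraction names 24 h for every sample, so the times used here are those of the titles and time labels.

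A dividing line in a closed dish changes after fresh medium is added: serum factors and nutrients arrive together, are then used up, and the layer grows denser. In a drug study the solvent arrays are the baseline of each time, so a change between solvent arrays of different times is part of what every comparison over time contains. Time since the medium change, cell density and the state of the medium cannot be told apart in this design. A lower level of a transcript in 1 kind of cell and a smaller share of the cells that make it also cannot be told apart.

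The table held no gene names and 0 of the 18919 identifiers could be paired with a symbol, so hepatocyte markers and markers of other cell types were not checked, no pathway was described, and 4 genes are given by identifier. Values are log2 levels after RMA, a normalization that makes all arrays alike in their distribution of signals, so a level 1 unit higher is a doubling of signal. Array medians of all 36 arrays lay between 3.32 and 3.46. Across genes, pairs of arrays of the same time correlated with r of 0.996 to 0.9974 at 24 h and 0.9968 to 0.9977 at 12 h, and pairs of 24 h with 12 h arrays with r of 0.9934 to 0.9962. Among the compared DMSO arrays, replicate 1 of 24 h stood apart in the dap spike-in controls, RNAs added during labelling. Its mean log2 level there was 5.86, against 12.02 and 13.05 in the other 24 h arrays and 11.94 to 13.12 in the 12 h arrays. Over all 36 arrays, 6 had a dap mean under 7, and only 1 of them was in the DMSO comparison. In DMSO 24 h replicate 1 the 3' row of the GAPDH control minus its 5' row was -0.14, against 0.07 and 0.04 in the other 24 h arrays and 0.00 to 0.04 in the 12 h arrays. For the actin control the same difference was 1.80 to 2.12 at 24 h and 1.79 to 2.19 at 12 h, so these ranges overlapped.

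Between 12 and 24 h in solvent, 741 genes changed, which is 3.92% of the genes tested: 361 were higher at 24 h (1.91%) and 380 were lower (2.01%; limma over all 36 arrays, adjusted p by Benjamini-Hochberg under 0.05, with n = 3 at each time). At an unadjusted p under 0.05 there were 2776 genes (14.7%). The changes were mostly small. Among the genes that rose, the median log2 change was 0.58 and the range 0.23 to 2.56, and among those that fell, the median was -0.59 and the range -2.97 to -0.24. Rises and falls of at least 2-fold numbered 47 and 44, which are 0.248% and 0.233% of the genes. Over all genes the median change was 0.01, and the median standard error of a change was 0.12. Genes with large changes were also the more variable ones: the median standard error was 0.22 among the 47 and 0.23 among the 44. The 3 arrays of 24 h lay wholly above or below the 3 of 12 h in 360 of the 361 genes that rose and in 378 of the 380 that fell, and also in 4329 of all genes (22.9%), so that this separation alone did not set the called genes apart.

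**Figure D1:**
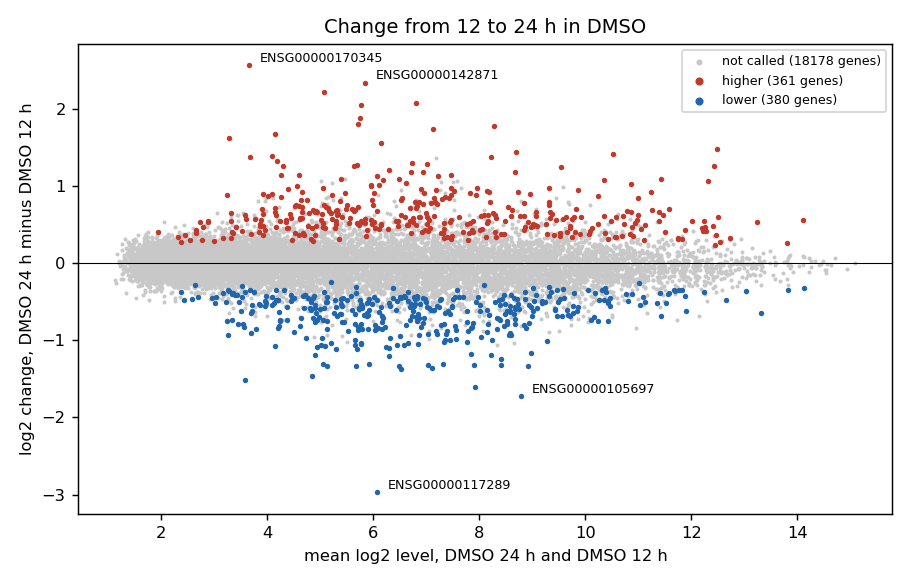
Each point is 1 of 18919 genes, with its mean log2 level over the 6 DMSO arrays on the horizontal axis and its log2 change, DMSO 24 h minus DMSO 12 h, on the vertical axis. The 361 genes higher and 380 genes lower at 24 h lie on both sides of 0 in similar numbers, few of them past a change of 1, and the 4 genes given by identifier lie at the outer edges.

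Fewer genes passed whenever 1 of the 6 compared arrays was left out. A group with 1 array fewer gives a less precise change, which by itself lowers the count. Without DMSO 24 h replicate 1, the array with weak spike-ins, 357 genes passed, of which 342 were among the 741 in the same direction. Leaving out replicate 2 or 3 of that group gave 610 or 463. Among the DMSO 12 h arrays, leaving out replicate 1, 2 or 3 gave 426, 330 or 589. The parts that precision and array quality have in these counts were not told apart. A core of 239 genes, 128 higher and 111 lower, passed in the same direction in all 6 fits that left out 1 of the compared arrays, which is 32.3% of the 741. Deviations of DMSO arrays with the same replicate number correlated across genes with r of 0.16 to 0.24, and these arrays were taken as paired. The 741 genes come from a fit that left this pairing out. In the fit of all 36 arrays, that number as a block within treatments gave 802 genes. A fit of only these 6 arrays called 926 genes without the block and 1472 with it, 642 higher and 830 lower. The list of 1472 held 672 of the 741 genes in the same direction.

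Genes of low signal contributed little. Of the 8497 genes with a mean log2 level under 3, which lies below the array medians, 19 passed (0.224%). The share was 2.61% of 2341 genes between 3 and 4, 7.38% of 2912 between 4 and 6, 9.07% of 2161 between 6 and 8, 8.17% of 1835 between 8 and 10, and 8.53% of 1173 genes at 10 and above. All 4 bins above a level of 4 thus lay above the overall share of 3.92%. In the bin from 6 to 8, 89 genes were higher and 107 lower, and at 10 and above 60 were higher and 40 lower. The median rise among called genes was 0.66 between levels of 4 and 6 and 0.51 at 10 and above, and the median fall was -0.71 between 6 and 8 and -0.43 at 10 and above. Genes of the highest signal therefore had the smaller changes among the called genes above a level of 4, and these had a median standard error of 0.11 over all genes of that bin, against 0.15 in the bin from 6 to 8.

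**Figure D2:**
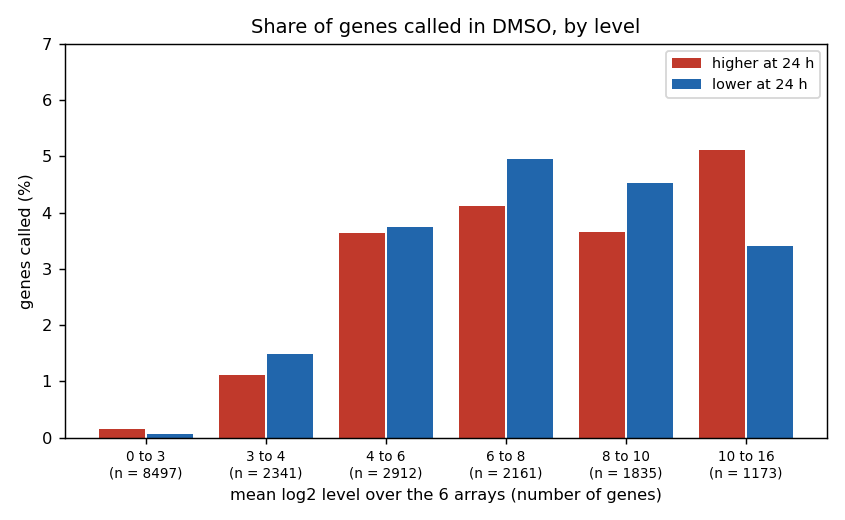
Bars give the percentage of genes called higher and lower at 24 h than at 12 h in DMSO, in 6 bins of the mean log2 level over the 6 arrays, with the number of genes in each bin below. In the lowest bin 19 of 8497 genes passed, and in each of the 4 bins above a level of 4 over 7% did, both directions together.

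The gene with the largest rise was ENSG00000170345. Its log2 levels were 5.11, 3.63 and 6.05 in the DMSO 24 h arrays, against 2.05, 2.51 and 2.54 in the DMSO 12 h arrays. All 24 h arrays were above all 12 h arrays, but the 24 h arrays differed among themselves by more than 2 units, and the 12 h levels lay below the array medians. The change was 2.56 ± 0.51 (SE; limma adjusted p = 0.0027), and its size is uncertain because the low end has no detection call. At the later times in DMSO the levels were 2.74, 2.73 and 3.75 at 48 h and 3.68, 4.15 and 3.76 at 72 h, so that the 24 h mean of 4.93 ± 1.22 (SD, n = 3) was the highest of the 4 times. The gene was picked for its rise to 24 h, and its 24 h arrays overlapped those of 48 and 72 h. Whether 24 h differed from the later times was not tested.

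ENSG00000142871 had the second largest rise and a much smaller spread. Its log2 levels were 6.98, 7.13 and 6.93 at 24 h, against 4.36, 4.60 and 5.07 at 12 h in DMSO, and the change was 2.34 ± 0.32 (SE; limma adjusted p = 4.4e-05), or 5.05-fold. The groups were far apart and the 24 h arrays lay close together. In DMSO it stayed high, with means of 6.45 ± 0.09 at 48 h and 6.47 ± 0.38 at 72 h (SD, n = 3 each). At 0.5 mM APAP the step to 24 h was 1.06 ± 0.32 (SE; limma adjusted p = 0.064), and at 10 mM it was 1.60 ± 0.32 (limma adjusted p = 0.001).

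The largest fall was that of ENSG00000117289, the only gene called at least 4-fold lower (0.00529% of the genes). Its log2 levels were 4.61, 3.77 and 5.34 at 24 h, against 7.57, 7.40 and 7.67 at 12 h in DMSO. The 12 h arrays agreed closely and the 24 h arrays were spread out well below them. The change was -2.97 ± 0.44 (SE; limma adjusted p = 1e-04), a level 7.85-fold lower. The fall went on, to 3.63, 3.57 and 3.47 at 48 h and 3.09, 3.25 and 3.38 at 72 h, near the array medians. At 0.5 mM the same step was -3.03 ± 0.44 (limma adjusted p = 9.9e-05), with levels of 4.17, 4.06 and 6.52 at 24 h and 8.01, 7.60 and 8.23 at 12 h. Replicate 3 was the highest 24 h array in both treatments.

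ENSG00000105697 had the second largest fall. Its log2 levels were 7.67, 7.91 and 8.20 at 24 h, against 9.47, 9.89 and 9.60 at 12 h in DMSO, and the groups did not overlap. The change was -1.73 ± 0.39 (SE; limma adjusted p = 0.0073), and it missed the threshold without DMSO 24 h replicate 1 (adjusted p = 0.051) or without DMSO 12 h replicate 2 (adjusted p = 0.053). The later DMSO means were 6.07 ± 1.16 at 48 h and 5.72 ± 0.43 at 72 h (SD, n = 3 each), so the gene was lower at each later time. At 10 mM it began lower, with a 12 h mean of 8.03 ± 0.23 against 9.66 ± 0.21 in DMSO (SD, n = 3 each), and its step there was -0.61 ± 0.39 (SE; limma adjusted p = 0.39).

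**Figure D3:**
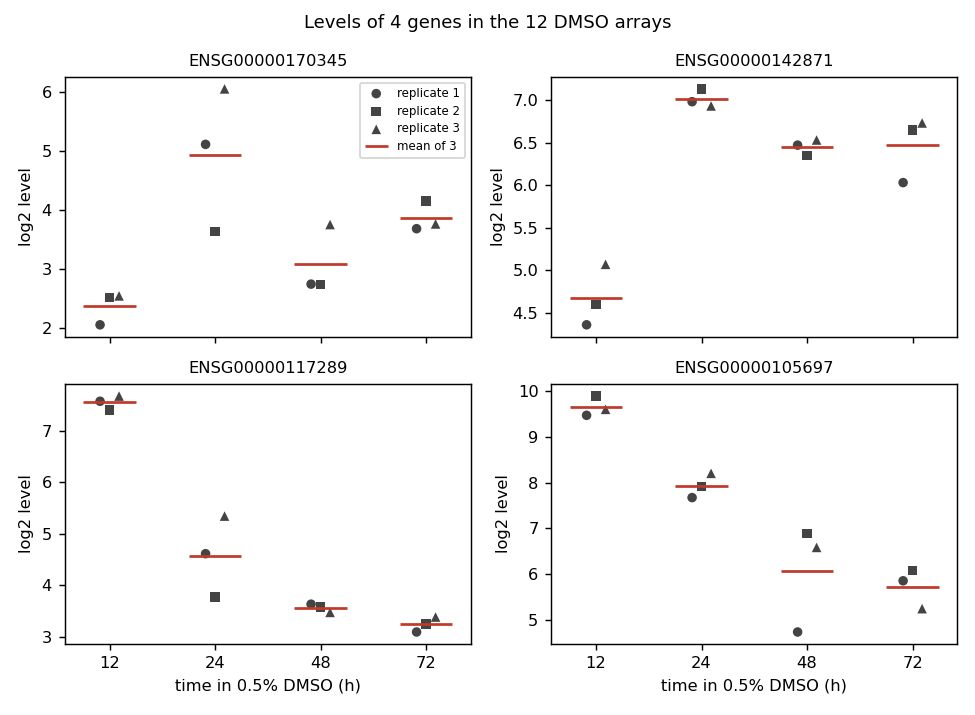
Points are the log2 levels of the 4 genes in the 12 DMSO arrays at 12, 24, 48 and 72 h, with a symbol for each replicate number and a line at the mean of 3. ENSG00000170345 had its highest mean at 24 h, where its arrays were widely spread and overlapped those of 48 and 72 h. ENSG00000142871 reached 7.01 at 24 h and lay at 6.45 and 6.47 later, and the 2 genes that fell had lower means at each later time.

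Whether the step also appeared in arrays whose levels did not enter the DMSO changes was examined at 0.5 mM APAP, where 655 genes changed from 12 to 24 h (3.46%), 248 higher (1.31%) and 407 lower (2.15%) at 24 h. Those arrays share with the DMSO arrays the estimate of each gene's spread. Effects common to all arrays of a time, or to arrays of the same replicate number across treatments, were not tested. The agreement below is therefore not that of a separate experiment. Of the 361 genes that rose in DMSO, 356 (98.6%) had a positive change at 0.5 mM, where 51.2% of all genes did, and 166 passed the test there. Of the 380 that fell in DMSO, 377 (99.2%) had a negative change at 0.5 mM, where 48.8% of all genes did, and 201 passed. None passed in the opposite direction. The shared genes were 46.0% of the DMSO rises and 66.9% of the 0.5 mM rises, and 52.9% of the DMSO falls and 49.4% of the 0.5 mM falls. The median change at 0.5 mM of the genes that rose in DMSO was 0.44 ± 0.02, and that of the genes that fell was -0.50 ± 0.09 (SD over 3 arrays of 24 h against the 12 h mean), beside 0.00 over all genes. Single 24 h arrays at 0.5 mM gave 0.42 to 0.46 and -0.59 to -0.43, so each of them showed both shifts.

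The numbers at 0.5 mM were also lower with 1 of the compared arrays left out. There were 219, 616 and 593 genes without 0.5 mM APAP 24 h replicates 1, 2 and 3. Without 12 h replicates 1, 2 and 3 there were 354, 329 and 330. The excess of falls there depended on scaling, with 331 higher and 314 lower after a second quantile normalization. In DMSO that scaling gave 401 higher and 336 lower, and centring on array medians gave 314 and 407, so which direction held the majority is not settled.

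No gene passed the test of a difference between the step at 0.5 mM and that in DMSO. It called 0 of 18919 genes (0%; limma), and 0 were called in each of 24 alternative fits. An unadjusted p under 0.05 was met by 534 genes (2.82%), a share below the 0.05 that would do so if no gene differed. Why it was lower was not tested. The median standard error of such a difference was 0.17. With 3 arrays per group and adjustment over all genes, differences in single genes well above that size also did not pass. The 0 calls therefore do not show that the 2 steps were equal. For ENSG00000142871 the step was 1.06 at 0.5 mM and 2.34 in DMSO, a difference of -1.28 that did not pass (limma adjusted p = 1). That gene was picked for its large step in DMSO.

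At 10 mM the genes of the solvent step moved less evenly. There, 2057 genes changed from 12 to 24 h (10.9%), 1009 higher (5.33%) and 1048 lower (5.54%). Of the 361 genes that rose in DMSO, 304 (84.2%) had a positive change at 10 mM, where 46.7% of all genes did, with 149 passing in the same direction and 7 in the opposite one. Of the 380 that fell, 309 (81.3%) had a negative change, where 53.3% of all genes did, with 129 passing in the same direction and 8 in the opposite one. The median changes at 10 mM were 0.32 ± 0.05 for the genes that rose in DMSO and -0.31 ± 0.07 for those that fell (SD over 3 arrays of 24 h). For the 76 DMSO genes called with a minimum change of 1.2-fold the medians were larger, 0.67 and -0.58 at 10 mM and 0.86 and -0.85 at 0.5 mM. That test picks genes with larger changes in DMSO, here 47 higher and 29 lower, which by itself favours larger medians. Over all 18919 genes the change in DMSO correlated with that at 0.5 mM with r of 0.71 and with that at 10 mM with r of 0.38. These are descriptions across genes, which are not independent replicates, and the 3 steps come from different arrays. Of the 18919 genes, 92 were called higher and 77 lower at 24 h in all 3 treatments. The 3 calls of a gene share 1 estimate of its spread, so they are not independent of one another.

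**Figure D4:**
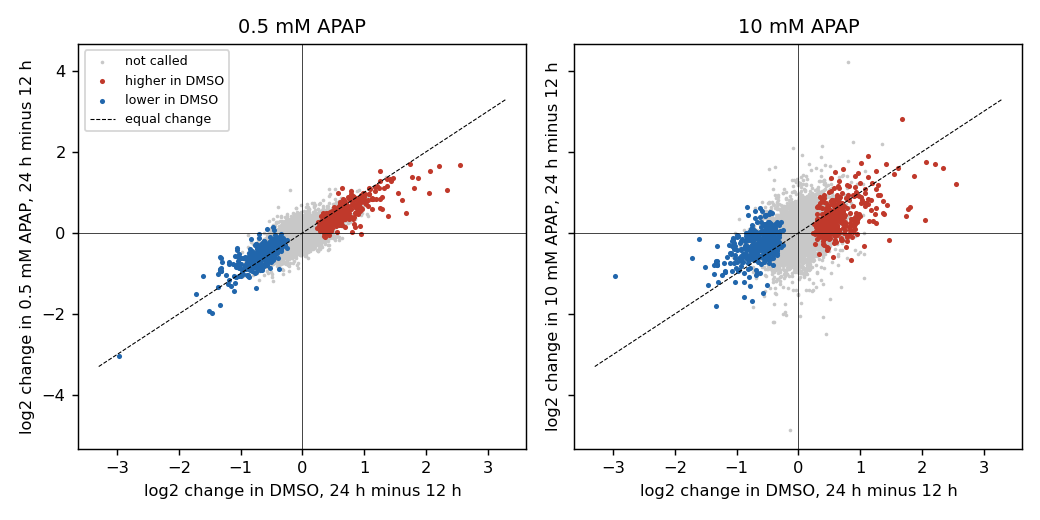
Each point is a gene, with its log2 change from 12 to 24 h in DMSO on the horizontal axis and the same change at 0.5 mM APAP (left) or 10 mM APAP (right) on the vertical axis. At 0.5 mM, 356 of the 361 risers and 377 of the 380 fallers kept the sign they had in DMSO, with medians of 0.44 and -0.50 at 0.5 mM against 0.58 and -0.59 in DMSO, and at 10 mM 57 risers and 71 fallers did not keep it. The genes were chosen by their change in DMSO, which by itself favours larger medians there, so the gap between these medians does not measure an effect of APAP.

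The steps at 10 mM and in DMSO differed in 440 genes (2.33%), with 236 steps higher (1.25%) and 204 lower (1.08%) at 10 mM than in DMSO. Leaving out 10 mM APAP 24 h replicate 1 gave 280 such genes, leaving out DMSO 24 h replicate 1 or 3 gave 281 or 260, and leaving out DMSO 12 h replicate 1 or 2 gave 276 or 292. With the replicate block and only the compared arrays it was 747. Genes called at 0.5 mM were set beside these differences: their changes come from other arrays, but their spread was estimated over all 36. Of the 248 genes that rose at 0.5 mM, 25 (10.1%) had different steps at 10 mM and in DMSO, and in 24 of them the step at 10 mM was the lower one. Of the 407 genes that fell at 0.5 mM, 41 (10.1%) differed, and in 38 the step at 10 mM was the higher one. Both shares were above the 2.33% of all genes, but all genes include many of low signal. No set matched in level and spread was compared. The median steps were 0.35 at 10 mM and 0.55 in DMSO for the 248 genes, and -0.24 at 10 mM and -0.45 in DMSO for the 407 genes.

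In the median, the early changes in solvent were larger still at the later times. In DMSO the 361 genes had a median log2 difference from 12 h of 0.58, 0.89 and 0.88 at 24, 48 and 72 h, and for the 380 genes the same medians of log2 differences were -0.59, -1.01 and -1.02. These values use the 12 h arrays that also chose the genes. Arrays at 0.5 mM, which entered that choice through the shared spread, gave medians of 0.44, 0.84 and 0.79 for the first set and -0.50, -0.91 and -1.07 for the second. Within each treatment the 3 arrays of 48 h were above all 3 of 24 h in the first set and below them in the second, both in DMSO and at 0.5 mM. At 10 mM the medians were 0.32, 0.38 and 0.38 for the first set and -0.31, -0.35 and -0.34 for the second, and 24 and 48 h arrays overlapped there.

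From 48 to 72 h in DMSO, a step that shares no array with the 12 and 24 h groups, the 2 sets barely moved. The median change was -0.01 in the genes that had risen and -0.06 in those that had fallen, with 47.9% of the first set above 0 and 57.6% of the second below 0, where 51.3% and 48.7% of all genes were. Across all genes the 12 to 24 h and 48 to 72 h changes in DMSO correlated with r of 0.12, again as a description.

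**Figure D5:**
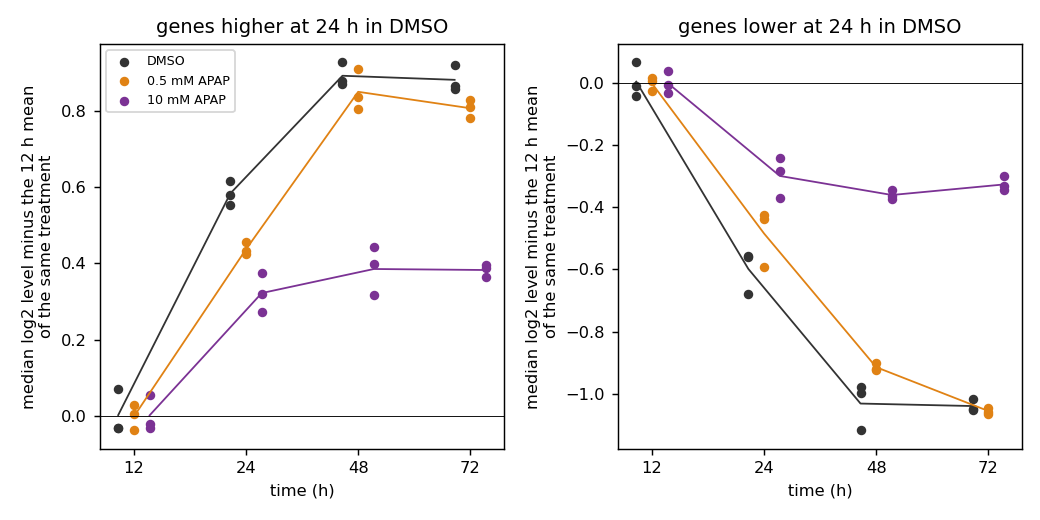
Points are arrays, at 12, 24, 48 and 72 h in DMSO, 0.5 mM APAP and 10 mM APAP, each at the median over genes of the log2 level minus the 12 h mean of its own treatment, and lines join the means of 3 arrays. The genes higher at 24 h in DMSO (left, 361) reached 0.89 at 48 h in DMSO, 0.84 at 0.5 mM and 0.38 at 10 mM, and the genes lower at 24 h (right, 380) reached -1.01, -0.91 and -0.35. The DMSO arrays of 12 and 24 h chose both sets, so the DMSO medians are not on equal terms with those of APAP.

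Single genes followed different courses behind these medians. In the 0.5 mM arrays, 278 of the 361 genes that rose in DMSO (77.0%) were higher at 72 h than at both earlier times, 59 (16.3%) lay between their 12 and 24 h means, and 24 (6.65%) were below both. Over all genes the first of these patterns was met by 43.2% and the last by 35.4%. Of the 380 genes that fell in DMSO, 315 (82.9%) were lower at 72 h than at both earlier times, 47 (12.4%) lay between, and 18 (4.74%) were above both, where the first pattern was met by 35.4% of all genes and the last by 43.2%. At 10 mM, 185 of the 361 (51.2%) and 201 of the 380 (52.9%) went further in their direction by 72 h, against 34.2% and 36.4% of all genes, and 60 (16.6%) and 68 (17.9%) lay on the other side of both earlier means, against 36.4% and 34.2% of all genes. ENSG00000170345 was among the genes whose 72 h mean at 0.5 mM lay between the 12 and 24 h means. Its means there were 2.50 ± 0.32, 4.18 ± 1.67, 3.45 ± 0.12 and 3.62 ± 0.06 at 12, 24, 48 and 72 h (SD, n = 3 each). Its 24 h mean rests on replicate 3, at 6.06, with the other 24 h arrays at 2.88 and 3.60.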

How the data were processed

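The deposited values are log2 levels for each Ensembl gene on each array, made by the authors with RMA, per the submitters' processing notes. Its version and settings, the probe sets and the build are not stated in the sources at hand. The labels' protocols say that RNA was column-purified with a DNase step and labelled with a 3' IVT kit. No value was missing, and the reported values were used as they stood. With no counts, the number of arrays limits the precision.

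Groups came from the sample titles. In R 4.3.3, limma 3.58.1 fitted 12 group means to the 36 arrays (24 residual degrees of freedom), contrasts were tested with eBayes, and p-values were adjusted by Benjamini-Hochberg over 18919 genes, with a threshold of 0.05. The series text calls the replicates biological. Where nothing further says that they came from separate cultures, p-values measure only the spread between these arrays. The comparison, lists and tests were chosen with earlier results of these data known. The follow-up of called genes in other arrays and later times was chosen after the values were seen.

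The reference table (59792 genes, GRCh38.p14) held no Ensembl identifier, and 0 identifiers matched, so the gene lists, cell type markers and promoter sequences chosen beforehand were not used. The rule for named genes then gave the 2 largest rises and 2 largest falls among called genes whose arrays of the 2 times did not overlap.

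Deviations from group means correlated between 24 and 12 h arrays of the same replicate number with r of 0.16, 0.24 and 0.24 in DMSO. Arrays of different numbers gave r of -0.19 to 0 there. The numbers, which come from the titles, were therefore taken to pair these arrays. At 0.5 mM (0.02, 0.05, -0.08) and 10 mM (0.11, 0.19, 0.01) they were not, and different numbers reached r of 0.13 and 0.12. Deviations from a mean of 3 cancel within each group, so these values of r depend on one another. Whether the arrays were truly paired was not tested. The main fit did not use the pairing, so its standard errors and p-values in DMSO ignore it, and it entered only as a block in alternatives. Alternatives were a fit of the compared arrays alone, the replicate block, array weights, median centring, quantile normalization done again, a filter at a mean level of 4, a trended and robust variance prior, a minimum change of 1.2-fold, the GAPDH 3' minus 5' difference as a covariate, and each array left out. The fit was also tested on simulated data with independent noise, which could not show how it behaves with paired arrays. Figures were drawn with matplotlib 3.10.9.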

Additional observations from a re-analysis of the deposited data

Results flagged for a closer look

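The change from 12 to 24 h at 10 mM APAP differed from that in DMSO in 440 genes, as tested by the contrast of the 2 steps (limma, adjusted p under 0.05), with 236 steps higher and 204 lower at 10 mM. None of the 4 genes given by identifier was among them. The closest was ENSG00000117289, whose step was -1.06 at 10 mM and -2.97 in DMSO, a difference of 1.92 (limma adjusted p = 0.1). Its level at 12 h was 5.67 ± 0.33 at 10 mM and 7.55 ± 0.14 in DMSO (SD, n = 3 each).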

How the results depend on the processing

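The 741 genes called in DMSO ranged from 330 to 610 when 1 of the 6 arrays was left out, and were 1602 with array weights, 76 with a minimum change of 1.2-fold and 1472 with the replicate block in the 6 arrays alone, which gave 926 without it. The other alternatives stayed within 1.5 times, including 802 and 870 with the block in all 36 arrays and 915 without DMSO 48 h replicate 1. For the 655 genes at 0.5 mM, leaving out arrays gave 219 to 616, leaving out DMSO 48 h replicate 1 gave 789, and the minimum change gave 48. For the 2057 at 10 mM it gave 1388 to 1819, array weights 3253 and the minimum change 369. The 440 differences between 10 mM and DMSO ranged from 260 to 390 when 1 array was left out, and were 545 without DMSO 48 h replicate 1, 1202 with array weights, 35 with the minimum change and 747 with the block in the compared arrays. The minimum change is by its construction a stricter test, and leaving out a compared array makes a change less precise. What array quality adds there, and the causes of the other shifts, were not tested. No change of the 4 genes and no followed median turned its sign in any recomputation, but which direction held more calls turned under several settings in each comparison that had calls. For example, the second quantile normalization gave 401 higher and 336 lower in DMSO, 331 and 314 at 0.5 mM and 1136 and 957 at 10 mM, leaving out DMSO 24 h replicate 1 gave 195 and 162 in DMSO, and with the minimum change 13 differences between 10 mM and DMSO were higher and 22 lower. Of the 4 genes, ENSG00000105697 missed the threshold in 3 of 18 alternatives (with the minimum change, adjusted p = 0.07), and the others kept it in all that were run. For ENSG00000170345 the filter at a mean level of 4 gave no value. The block ended no call of the 4. The median changes followed at 0.5 mM ranged from 0.34 to 0.86 for the genes that rose and from -0.85 to -0.39 for those that fell, and at 10 mM from 0.21 to 0.67 and from -0.58 to -0.23, with the largest changes in all 4 under the minimum change. Low signal, without a detection call, limits what can be said of the 56.7% of genes with a mean level under 4.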
